A study of Mus musculus with 4 samples.

Results

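Genes of the p53 response and of cell cycle arrest were followed in mouse mammary basal cells grown as colonies with or without Wnt3A. The set was chosen by name, as 35 genes that encode p53 and its feedback regulators, the Cdk inhibitors, and targets of p53 that act in growth arrest, apoptosis and DNA repair. Earlier results of these data were known at that choice, so the shares of all genes given below are a description and not an independent background. A gene was measured if the array annotation gave its symbol alone to at least 1 probe set, and its value was the mean of those probe sets. By this rule 32 of the 35 genes were measured with 61 probe sets, among 18193 genes on the arrays, and the other 3, the p53 gene itself among them, were not analysed here.

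The cells came from the mammary glands of virgin CD1 females aged 8 to 12 weeks and were sorted as lineage-negative, CD24+ and CD29hi, a basal gate enriched for stem cells. They were embedded in Matrigel, a basement membrane gel, in EGF-containing medium (50 ng/ml), to which Wnt3A, a secreted ligand of the canonical Wnt pathway, was added at 200 ng/ml, or else its vehicle, CHAPS in PBS. Passage 2 colonies grown for 6 to 7 days gave the RNA, which was hybridised to 1-colour Affymetrix mouse arrays. Each group had 2 arrays, control 1 and control 2 for vehicle and Wnt3A 1 and Wnt3A 2 for the ligand. The labels name no separate animals or cultures for the arrays of a group, so a p-value here reflects only how far these arrays scatter, which can be technical.

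p53 is a transcription factor that cells stabilise after DNA damage, oncogene activity and other stress. It switches on the Cdk inhibitor p21, which stops cells before S phase, together with genes that promote apoptosis or repair, and it induces Mdm2, a ubiquitin ligase that returns p53 to a low level. Several of these targets also answer to other regulators, and the Ink4 and Cip/Kip inhibitors restrain epithelial cells in culture independently of p53.

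The deposited log2 values are differences from the median of each probe set over the 4 arrays, so they hold no absolute level, and the cell type could not be checked by marker levels. The spacing of the stored numbers gave a coarse level band, which can be too high by 1 band: it placed all 7 basal markers at log2 8 or more, but also 3 of 5 immune markers. The array medians lay between -0.02 and 0.02. The Wnt feedback gene Axin2 differed by 0.82 ± 0.20 log2 units (SE, n = 2 arrays a group), from -0.27 and -0.59 in control 1 and 2 to 0.60 and 0.19 in Wnt3A 1 and 2. Squamous keratinocyte markers were higher with Wnt3A, with median values of -0.42 and -0.66 in control 1 and 2 and 0.12 and 1.03 in Wnt3A 1 and 2, and 6 of 8 higher without overlap between the groups, beside 17.0% of all genes. Luminal markers had medians of 0.17, 0.08, -0.02 and -0.17 in the same order, with 4 of 9 lower without overlap, beside 17.5% of all genes. Basal markers had medians of -0.50, 0.17, -0.20 and 0.32, lowest in control 1. In 0 of 7 the groups did not overlap, beside 34.6% of all genes. Their part in the values below was not tested, and in bulk RNA fewer cells of a type and less RNA per cell cannot be told apart.

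The promoter windows of the genes are given first, because p53 acts by binding DNA near its targets. RefSeq windows on GRCm38.p6, from 250 bases before to 50 after a transcript start, were found for 24 of the 32 measured genes. The p53 decamer, the unit of its response element, was searched without mismatch, and since it is its own reverse complement 1 search covers both strands. It was present for 8 of the 24 genes, against 9.55% of all 27025 genes with a window, and in 9 of their 33 windows, against 8.36% of all windows. These 8 were Cdkn1a, Ccng1, Aen, Polk, Sesn1, Mdm2, Gadd45a and Ei24. Many genes of the set were listed because they are p53 targets, so their share is not independent of that choice. A decamer here is a sequence match, and binding of p53 was not measured. A 20-base pair of adjacent decamers with at most 1 mismatch was present in 2 of the 24, Cdkn1a and Ccng1, against 0.0814% of all genes. The motif of the Wnt pathway factors Tcf and Lef, CTTTGAT on either strand, was found in 0 of the 24 genes and in 4.29% of all genes. With 24 genes a count of 0 cannot be told apart from that share. Bases outside the windows were not searched for any motif.

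The window of Cdkn1a is shown whole up to the transcript start because it holds 2 decamers, in capitals, and because Cdkn1a links p53 to the Cdk inhibitors. It covers chr17:29090729-29090978 on the plus strand and belongs to the upstream one of 2 starts, which lie 2790 bases apart. The 20-base pair begins at base -51 with the second capital decamer and runs on into lower-case bases, which hold its 1 mismatch. The first capital decamer, at base -73, is not part of the pair.
Cdkn1a: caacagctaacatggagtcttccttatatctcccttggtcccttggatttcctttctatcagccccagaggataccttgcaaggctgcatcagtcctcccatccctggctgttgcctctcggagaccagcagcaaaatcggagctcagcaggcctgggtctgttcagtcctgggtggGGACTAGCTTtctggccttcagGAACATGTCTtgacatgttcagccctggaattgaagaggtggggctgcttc

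For comparison, the decamer is shown in capitals with 10 flanking bases for Mdm2 and for the genes whose groups did not overlap, which were Ccng1, Aen, Polk and Sesn1. They lie at chr11:40755452-40755481 (minus strand) for Ccng1, chr7:78895927-78895956 (plus) for Aen, chr13:96519399-96519428 (minus) for Polk, chr10:41887256-41887285 (plus) for Sesn1 and chr10:117710925-117710954 (minus) for Mdm2. The Aen decamer starts at base 11 of the transcript, and the others lie before the start.
Ccng1: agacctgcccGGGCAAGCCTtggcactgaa
Aen: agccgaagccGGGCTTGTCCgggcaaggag
Polk: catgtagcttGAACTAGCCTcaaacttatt
Sesn1: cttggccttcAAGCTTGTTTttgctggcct
Mdm2: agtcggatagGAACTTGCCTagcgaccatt

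Over the whole set, several apoptosis and arrest targets had both Wnt3A arrays above both controls, while the Cdk inhibitors were split and 2 of 4 repair genes were lower. The comparison with control asked how Wnt3A changes these genes in colonies, and no gene passed it. An adjusted p under 0.05 by limma was found for 0 of 18193 genes, in any setting run, and an unadjusted p under 0.05 for 1340 (7.37%). Groups did not overlap for 15 of the 32 genes, 11 higher and 4 lower with Wnt3A, beside 34.6% of all genes (17.0% higher, 17.5% lower). The share was 36.6% among the 10197 genes with a probe set in the highest level band, where 30 of the 32 lie. An unadjusted p under 0.05 was reached by 9 of the 32, 7 higher and 2 lower, beside 3.55% and 3.82% of all genes. This count was 4 without Wnt3A 1, where the share of all genes was 5.19%, and 7 to 12 with another array left out, where the share was 5.59% to 7.46%. Such a fit has 1 residual degree of freedom, and the lone array is assumed to vary like the arrays of the other group. The mean was higher with Wnt3A in 20 of the 32, beside 50.1% of all genes, and 9 differed by at least 0.5 log2 units, beside 7.46%. The median difference of the 32 was 0.15 log2 units against 0.00 over all genes, and their median absolute difference was 0.33 against 0.12. Because no gene was called, the values below are measured differences and not established changes.

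**Figure D1:**
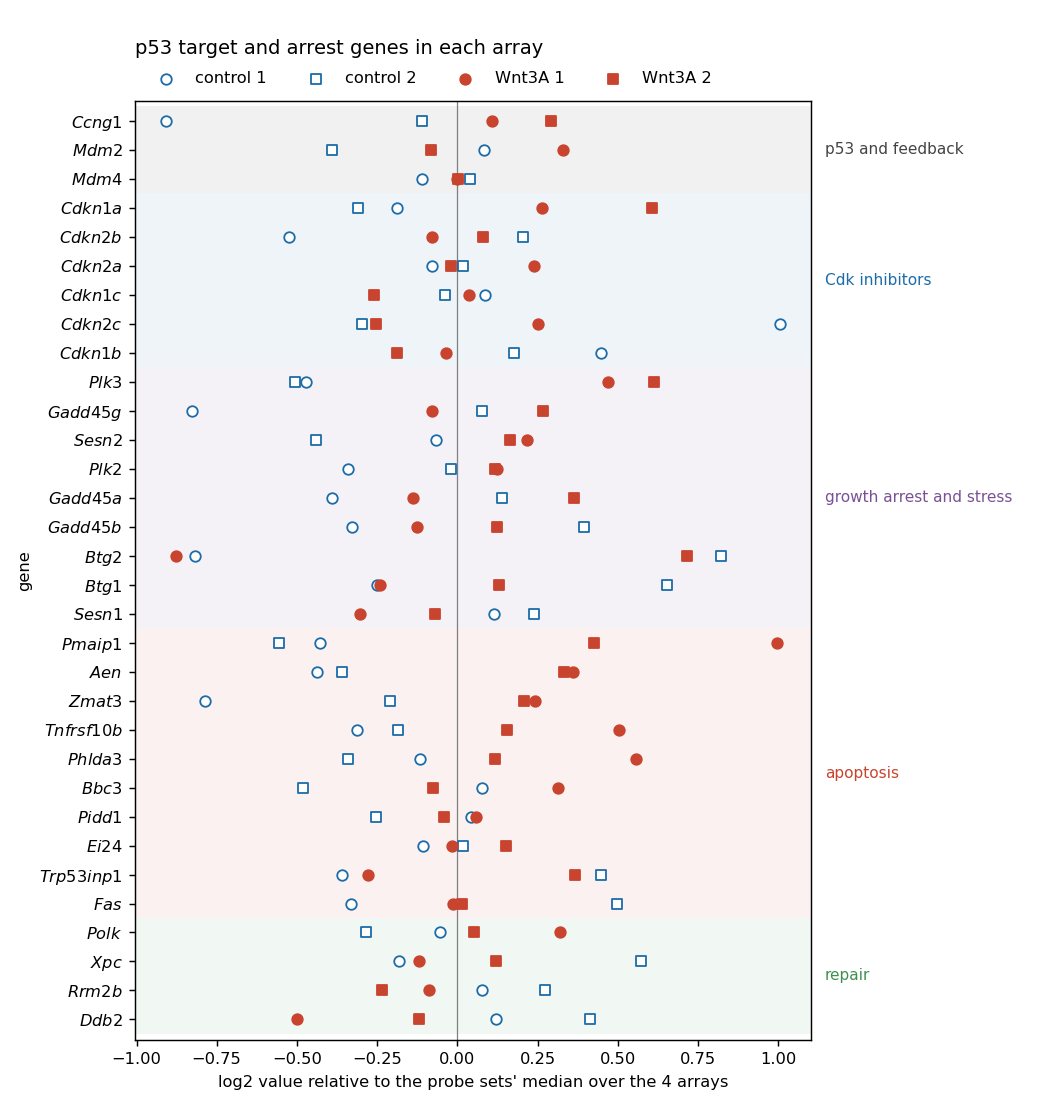
Values of the 32 genes in each array, as log2 relative to the median over the 4 arrays, with open symbols for control and filled ones for Wnt3A, circles for arrays numbered 1 and squares for arrays numbered 2, and genes grouped by role. Filled symbols lie to the right of open ones for 11 genes, among them Plk3, Pmaip1 and Aen, and to the left for 4.

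Among the feedback genes of p53, Ccng1, which encodes cyclin G1, a partner of a phosphatase that acts on Mdm2, lay at -0.91 and -0.11 in control 1 and 2 and at 0.11 and 0.29 in Wnt3A 1 and 2. Its groups did not overlap, and control 1 was the low array. The difference was 0.71 ± 0.29 log2 units (limma adjusted p = 0.71), and it was 0.31 without control 1 against 1.11 without control 2. The 3 Ccng1 probe sets differed by 0.49 to 0.83, and in the one at 0.49 the groups overlapped. Mdm2 lay at 0.08 and -0.39 in the control arrays and at 0.33 and -0.08 with Wnt3A. Its groups overlapped, since Wnt3A 2 was below control 1, and the difference was 0.28 ± 0.24, with a 95% interval from -0.35 to 0.91. It was 0.07 without Wnt3A 1 and 0.04 without control 2. Mdm4, which binds p53 and blocks its activity, differed by 0.04 ± 0.12.

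The Cdk inhibitors fall into the Cip/Kip genes Cdkn1a, Cdkn1b and Cdkn1c, which bind cyclin-Cdk complexes, and the Ink4 genes Cdkn2a, Cdkn2b and Cdkn2c, which bind Cdk4 and Cdk6. Cdkn1a, which encodes p21 and is the classic arrest target of p53, lay at -0.19 and -0.31 in the control arrays and at 0.26 and 0.61 with Wnt3A. Both Wnt3A arrays were above both controls. The difference was 0.68 ± 0.16 log2 units, a 1.61-fold higher value with Wnt3A (limma unadjusted p = 0.0108, adjusted p = 0.545), and 0.51 to 0.86 with an array left out. Its 2 probe sets disagreed in size, at 0.96 with groups that did not overlap and at 0.41 with groups that did.

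Cdkn1b, which encodes p27, a brake on Cdk2 that is lost as cells are driven into the cycle, went the other way. Its values were 0.45 and 0.18 in the control arrays and -0.03 and -0.19 with Wnt3A, so both Wnt3A arrays were below both controls. The difference was -0.42 ± 0.15 (limma unadjusted p = 0.0429, adjusted p = 0.649), and it was -0.29 without control 1. The 2 probe sets differed by -0.62 and -0.23, and the one in the higher level band gave -0.23.

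Of the 6 inhibitors, 1 was thus higher and 1 lower without overlap, beside 17.0% and 17.5% of all genes, which is near those shares. For the other 4 inhibitors the groups overlapped. Cdkn1c, which encodes p57, had 0.09 and -0.04 in the control arrays and 0.04 and -0.26 with Wnt3A, a difference of -0.13 ± 0.15. Cdkn2a, which encodes both p16 and p19Arf, a Mdm2 inhibitor, had -0.08 and 0.02 in the control arrays and 0.24 and -0.02 with Wnt3A, a difference of 0.14 ± 0.14. The 2 proteins of Cdkn2a come from overlapping transcripts, and its 1 probe set was not assigned to either. Cdkn2b, which encodes p15, had -0.52 and 0.20 in the control arrays and -0.08 and 0.08 with Wnt3A, so the controls bracketed both Wnt3A arrays. The difference was 0.16 ± 0.27, and -0.20 without control 1.

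Cdkn2c, which encodes p18, showed the widest spread of the 6, at 1.01 and -0.30 in the control arrays and 0.25 and -0.25 with Wnt3A. The high value was that of control 1 alone. The difference of -0.35 ± 0.48 became 0.30 without control 1 and -1.01 without control 2. Control 1 was also the array with the highest median of 17 proliferation genes, such as Mki67 and Top2a, at 0.31 against -0.23 in the other control, with 0.07 and -0.06 in Wnt3A 1 and 2. The part of proliferation in the Cdkn2c values was not tested. The proliferation genes themselves differed between groups by a median of 0.03, and in 0 of 17 the groups did not overlap, beside 34.6% of all genes.

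Genes of growth arrest and stress signalling were led by Plk3, which encodes a polo-like kinase of the stress response. Its values were -0.47 and -0.51 in the control arrays and 0.47 and 0.61 with Wnt3A, so arrays of a group lay close together and the groups far apart. The difference was 1.03 ± 0.12 log2 units, or 2.04-fold, with the smallest p of the 32 genes (limma unadjusted p = 6.0e-04, adjusted p = 0.302). It was 0.96 to 1.10 with an array left out. Its relative Plk2 differed by 0.30 ± 0.15, with groups that did not overlap in the mean of its 2 probe sets. Each probe set alone had overlapping groups, with differences of 0.10 and 0.50.

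The sestrins, which restrain mTORC1 signalling under stress, went in opposite directions. Sesn2 differed by 0.44 ± 0.17, with both Wnt3A arrays higher and both probe sets on the same side, and Sesn1 by -0.36 ± 0.14, with both lower. In 3 of the 4 Sesn1 probe sets the groups did not overlap, with differences of -0.30 to -0.60, and the one in the lowest level band gave -0.03. Without Wnt3A 1 the Sesn1 difference was -0.25, and without control 1 and control 2 that of Sesn2 was 0.63 and 0.26.

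The Gadd45 genes, which encode small stress proteins that bind kinases and repair factors, all had overlapping groups. Gadd45a differed by 0.24 ± 0.27, Gadd45b by -0.03 ± 0.28 and Gadd45g by 0.47 ± 0.34. Gadd45g was low in control 1 alone, at -0.83 against 0.08 in control 2, and differed by 0.02 without that array. The antiproliferative genes Btg1 and Btg2 differed by -0.26 ± 0.34 and -0.08 ± 0.77. Btg2 followed the array number instead of the treatment: it lay at -0.82 in control 1 and -0.88 in Wnt3A 1, and at 0.82 in control 2 and 0.72 in Wnt3A 2. Its 95% interval without regard to the number was -2.12 to 1.95, whereas Wnt3A minus control was -0.06 between the arrays numbered 1 and -0.10 between those numbered 2.

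**Figure D2:**
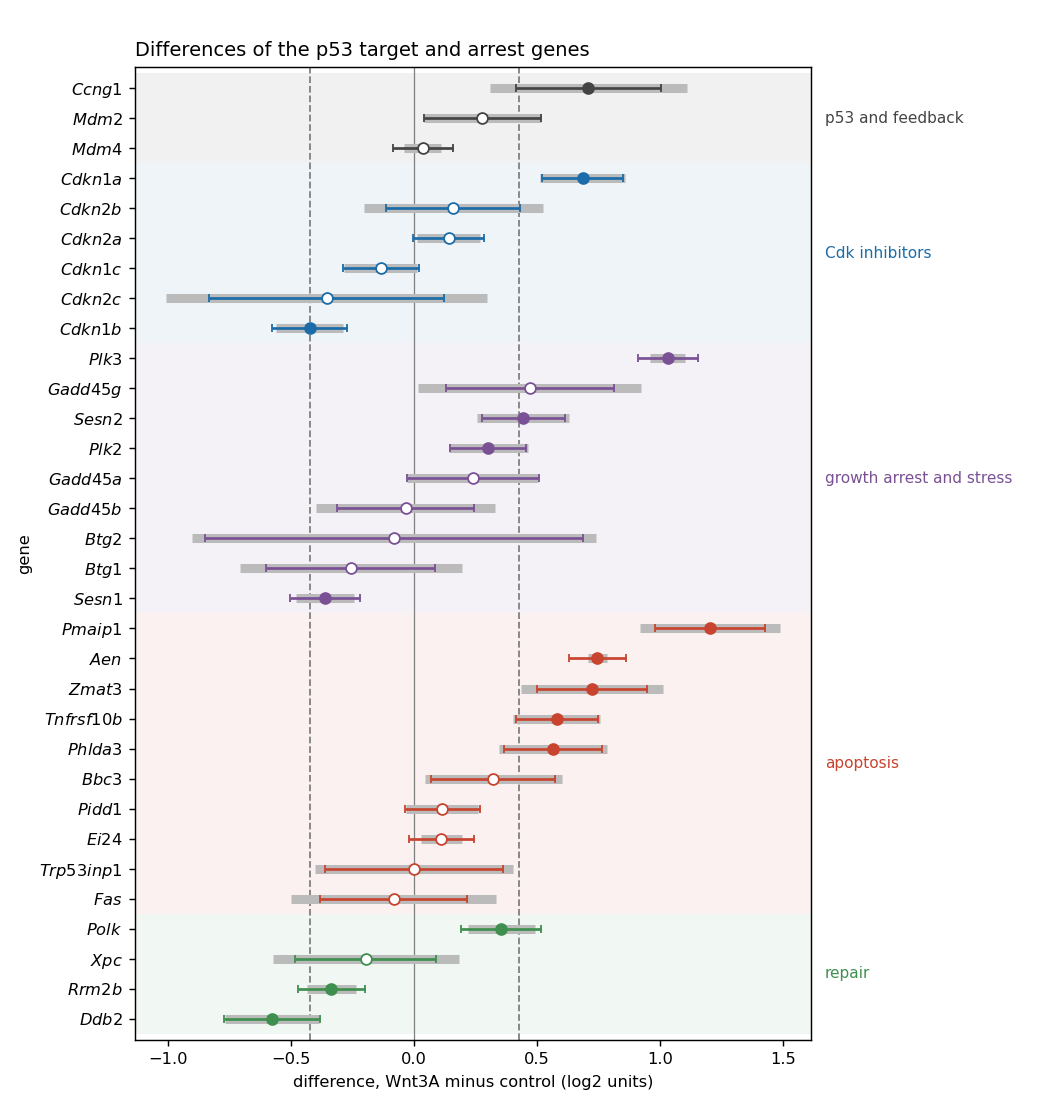
Difference of each gene, Wnt3A minus control in log2 units, with the standard error of the limma fit as thin bars, and the range over fits with 1 array left out as wide grey bars. Filled points mark genes whose groups did not overlap, and dashed lines mark the 5th and 95th percentiles of all 18193 genes, at -0.42 and 0.42; Plk3 and Pmaip1 lie farthest to the right, and Ddb2 farthest to the left.

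Of the 10 apoptosis targets measured, 5 were higher without overlap and 0 lower, beside 17.0% and 17.5% of all genes. The same 5 had an unadjusted p under 0.05, beside 3.55% of all genes on that side. The highest was Pmaip1, which encodes Noxa, a BH3-only protein that neutralises the survival protein Mcl1. Its values were -0.43 and -0.56 in the control arrays and 1.00 and 0.43 with Wnt3A, with the higher value in Wnt3A 1. The difference was 1.20 ± 0.22 log2 units, or 2.30-fold (limma unadjusted p = 0.00402, adjusted p = 0.452), and 0.92 without Wnt3A 1.

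Aen, which encodes a nuclease that takes part in apoptotic DNA breakdown, had -0.44 and -0.36 in the control arrays and 0.36 and 0.33 with Wnt3A. Its standard error was the smallest of the 32 genes, with a difference of 0.74 ± 0.11 (limma unadjusted p = 0.00187, adjusted p = 0.421) and 0.71 to 0.78 with an array left out. Of its 4 probe sets, 3 differed by 0.89 to 1.08 and 1 by 0.01. The mean of the 2 probe sets in its highest level band, which include the one at 0.01, was 0.50.

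Zmat3, which encodes an RNA-binding protein that p53 induces, had -0.79 and -0.21 in the control arrays and 0.24 and 0.21 with Wnt3A. The difference was 0.72 ± 0.22 (limma unadjusted p = 0.0261, adjusted p = 0.609), and 0.43 without control 1, the lowest array. Tnfrsf10b, the mouse receptor of the death ligand TRAIL, had -0.31 and -0.19 in the control arrays and 0.50 and 0.15 with Wnt3A. Its difference was 0.58 ± 0.17 (limma unadjusted p = 0.0208, adjusted p = 0.591), and both probe sets had groups that did not overlap.

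Phlda3, which encodes an inhibitor of Akt signalling, had -0.12 and -0.34 in the control arrays and 0.56 and 0.12 with Wnt3A. It differed by 0.57 ± 0.20 (limma unadjusted p = 0.0399, adjusted p = 0.645), and by 0.35 without Wnt3A 1. In Phlda3, Pmaip1 and Tnfrsf10b alike, Wnt3A 1 was the higher of the Wnt3A arrays, whereas in Cdkn1a and Plk3 it was Wnt3A 2. For Cdkn1a the probe sets disagreed on this order. The one with overlapping groups had -0.06 and 0.78 in Wnt3A 1 and 2, and the other 0.59 and 0.44.

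The remaining 5 apoptosis genes had overlapping groups. Bbc3, which encodes Puma, the other BH3-only protein of the set, lay at 0.08 and -0.48 in the control arrays and 0.31 and -0.08 with Wnt3A, a difference of 0.32 ± 0.25 that was 0.04 without control 2. Pidd1, the scaffold of the caspase-2 complex, differed by 0.11 ± 0.15 and Ei24, an endoplasmic reticulum protein, by 0.11 ± 0.13. The death receptor gene Fas differed by -0.08 ± 0.30 and Trp53inp1, a cofactor of p53, by -0.00 ± 0.36. Trp53inp1 followed the array number in the way of Btg2, at -0.36 and 0.45 in the control arrays and -0.28 and 0.37 with Wnt3A.

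Of the 4 repair genes, 1 was higher and 2 were lower without overlap, beside 17.0% and 17.5% of all genes. Ddb2, a damage sensor of nucleotide excision repair, had 0.12 and 0.41 in the control arrays and -0.50 and -0.12 with Wnt3A, with no overlap. The difference was -0.58 ± 0.19 log2 units, a 1.49-fold lower value (limma unadjusted p = 0.0352, adjusted p = 0.632). Its 2 probe sets gave -0.59 and -0.56, and the difference was -0.39 without Wnt3A 1. Rrm2b, the p53-induced subunit of ribonucleotide reductase, differed by -0.34 ± 0.14, and its 4 probe sets ranged from -0.73 to -0.11. Those in the lowest level band, at -0.11 and -0.20, had overlapping groups, and the others, at -0.73 and -0.30, did not. Polk, a translesion DNA polymerase, differed by 0.36 ± 0.16, with both probe sets higher. Xpc, the partner of Ddb2 in damage recognition, differed by -0.20 ± 0.29 with overlapping groups.

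**Figure D3:**
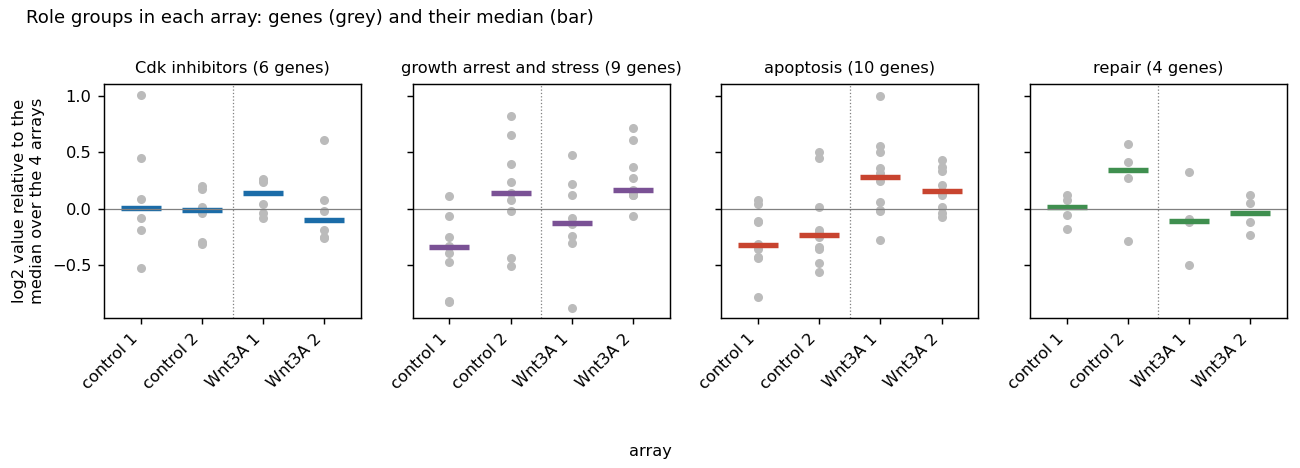
Values of the genes of 4 role groups in each array (grey points) and the group median (bars), in log2 relative to the median over the 4 arrays. The apoptosis medians are below 0 in both controls and above 0 in both Wnt3A arrays, whereas those of the Cdk inhibitors lie between -0.10 and 0.14.

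Set against each other, the 6 Cdk inhibitors had medians of 0.00 and -0.01 in control 1 and 2 and 0.14 and -0.10 in Wnt3A 1 and 2, and the 14 measured apoptosis and repair genes had -0.15, -0.20, 0.15 and 0.12. The median difference was 0.00 log2 units for the inhibitors and 0.22 for the apoptosis and repair genes, beside 0.00 for all genes. The inhibitor median was -0.14 without Wnt3A 1. The joint median of the other list hid a split, since it was 0.44 for the 10 apoptosis genes and -0.27 for the 4 repair genes. With an array left out the apoptosis median stayed between 0.33 and 0.63. The repair median was -0.50 without control 1 and -0.03 without control 2, the array in which it was highest, at 0.34. Growth arrest and stress genes had a median of 0.24 over 9, which was -0.03 without control 1 and -0.01 without Wnt3A 2, and 0.46 and 0.42 without control 2 and Wnt3A 1. These medians describe the named genes, and no test was made of a list.

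**Figure D4:**
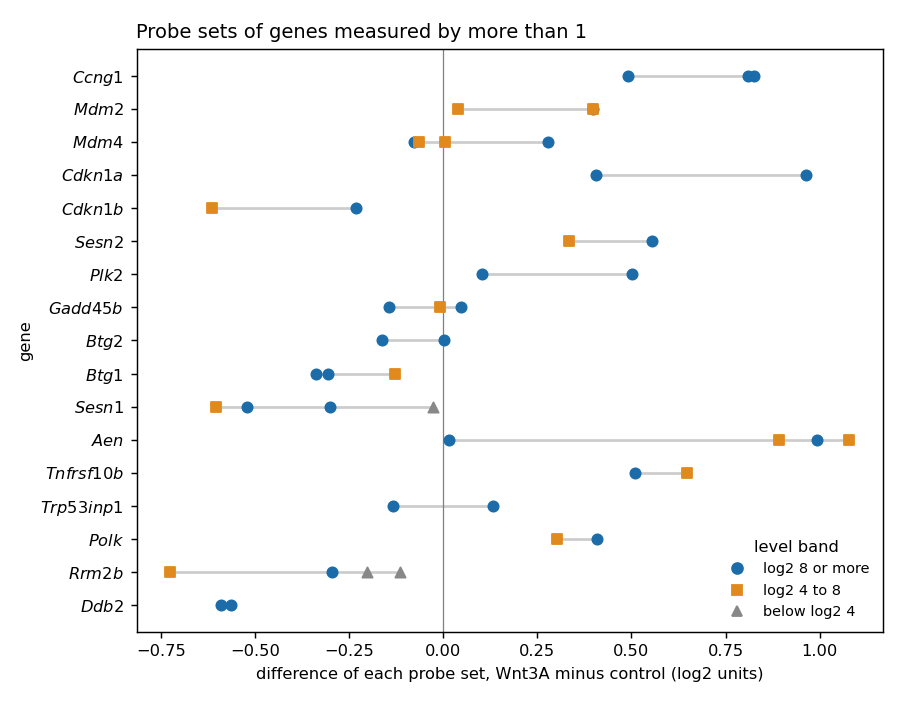
Difference of each probe set, Wnt3A minus control in log2 units, for the 17 genes with more than 1 probe set, with symbols for the level band read from the stored numbers. The probe sets of Aen reach from 0.01 to 1.08 and those of Ddb2 lie together at -0.59 and -0.56.

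Probe sets of a gene differed by over 0.5 log2 units from each other in 4 genes, which were Aen, Cdkn1a, Rrm2b and Sesn1. Each of them kept the sign of its difference in all its probe sets, but each had at least 1 probe set with overlapping groups. The sign says little where a probe set was near 0, as at 0.01 in Aen and -0.03 in Sesn1. Groups that did not overlap, on the same side in every probe set, were found in 9 of the 32 genes. Among these, Phlda3, Plk3, Pmaip1 and Zmat3 have only 1 probe set, so no second one could disagree. The share of all genes under this rule was not computed, so the count has no background beside it. The array numbered 2 lay above the array numbered 1 in both groups for 14 of the 32 genes, below it in both for 10, and on opposite sides for 8. Within the numbers 1 and 2, Wnt3A minus control was 0.94 and 1.12 for Plk3, 1.42 and 0.98 for Pmaip1, 0.45 and 0.92 for Cdkn1a and -0.62 and -0.53 for Ddb2. The groups of these genes did not overlap, so both differences of each had to share their sign. Wnt3A minus control had the same sign within both numbers in 23 of the 32 genes, and the share of all genes was not computed.

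Genes around the set were read from further lists, whose counts without overlap stand beside 17.0% higher and 17.5% lower over all genes, or 34.6% together. Of 18 regulators and kinases of p53, 3 were higher and 2 lower without overlap, and Sirt1, a deacetylase of p53, differed by -0.50 ± 0.14 (limma unadjusted p = 0.0183). Of 19 other p53 targets measured, 7 were higher and 2 lower. Sfn, a target that holds cells in G2 and is also made by stratifying keratinocytes, differed by 1.20 ± 0.20, with -0.72 and -0.43 in the control arrays and 0.43 and 0.82 with Wnt3A. Trp53i11 and the thiamine transporter gene Slc19a2 differed by 0.44 ± 0.12 and 0.34 ± 0.12. The median of that list was 0.08.

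Of 27 G1 cyclins, Cdks, E2F factors and pocket proteins, 1 was higher and 3 were lower without overlap, with a median of -0.01. Lin9, a subunit of the complex that represses cell cycle genes in quiescence, was the one with an unadjusted p under 0.05, at -0.33 ± 0.11. Of 14 other Bcl2 family and caspase genes measured, 4 were higher and 3 lower, with a median of -0.01. The 3 lower ones were all BH3-only genes outside the set. Other BH3-only genes of the list were not lower: Bid, Bad and Hrk differed by 0.24, 0.00 and 0.11, with overlapping groups. Bcl2l11, which encodes Bim, differed by -0.44 ± 0.14, Bmf by -0.36 ± 0.12 and Bik by -0.77 ± 0.43. Bik, named after its values were seen, was high in control 2 alone, at 1.26 against 0.02 in control 1 and -0.05 and -0.21 in Wnt3A 1 and 2. Casp8, the initiator caspase of death receptors, differed by 0.37 ± 0.14. The limma unadjusted p was 0.0319 for Bcl2l11, 0.0378 for Bmf, 0.138 for Bik and 0.0490 for Casp8.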

How the data were processed

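The deposited table holds log2 values of 45101 probe sets in 4 arrays. Per the submitters' processing notes they were made with RMA, with no version stated. Every row of the deposited log2 values had a median of 0 to rounding, so levels had been removed, while differences between arrays are unaffected. Which step centred them was not given in the sources used here.

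Of 45037 probe sets other than controls, 34945 had 1 gene symbol in the platform annotation, 932 several and 9160 none, and a gene was the mean of its single-symbol probe sets, with no filter. All 18193 genes were fitted with limma 3.58.1 in R 4.3.3 (lmFit, eBayes, no covariate, two-sided, Benjamini-Hochberg), with 2 residual and 2.53 prior degrees of freedom; errors are those of this fit. The number of arrays limits the precision, with a median standard error of 0.15 log2 units over all genes, and an exact permutation test of 2 against 2 arrays cannot give a two-sided p below 0.33. The fit, the level bands and the motif search were tested on simulated data.

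The genes and lists were chosen with earlier results of these data known. Arrays were named in full for the Cdk inhibitors, Mdm2, genes with no overlap and an unadjusted p under 0.05, and the 8 largest differences; in other lists up to 4 genes with no overlap and the lowest p under 0.05 were named. Figures used matplotlib 3.10.9.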

Additional observations from a re-analysis of the deposited data

How the results depend on the processing

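No gene of the table had an adjusted p under 0.1 in the fit reported, and none had one under 0.05 under the alternatives run, which were the highest level band of each gene, genes below log2 4 left out, quantile normalization, centring of each array, robust eBayes, single probe sets, the replicate block and each array left out. The count of the 32 genes with an unadjusted p under 0.05 was 9, 4 to 12 with an array left out, and 14 with the replicate block, where 12.5% of all genes passed. The numbers are not stated to pair the arrays, although the number 2 minus number 1 differences of the 2 groups correlated over genes (r = 0.44 over 18193 genes, which are not independent). The count without overlap was 15 with all arrays, and 9 when every probe set of a gene had to separate. It was 19 to 28 with an array left out, where 3 arrays overlap less by construction. For the 9 and the 19 to 28 the share of all genes was not computed, so these counts have no background beside them. The apoptosis and repair median, 0.22, was 0.25 after quantile normalization and 0.21 to 0.35 with an array left out, and the Cdk inhibitor median, 0.00, was -0.016 after quantile normalization, -0.00 with each array centred and -0.14 to 0.047 with an array left out, so it has no settled sign. The mean over the highest level band gave -0.23 for Cdkn1b and 0.50 for Aen. With an array left out the difference changed sign in 12 of the 32 genes, which all had overlapping groups; where groups do not overlap, leaving out an array cannot change the sign.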
